A study of Mus musculus with 8 samples.

Results

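Bach2 was induced in antigen-specific mouse CD4 T cells, and the change that its vector brought in 2 kinds of helper cell at once was measured as a single effect, adjusted for the kind of cell. All 8 of the 8 libraries of the series entered: the 4 titled Bach2 were compared with the 4 titled EV (empty vector), in a model with a term for vector and a term for cell type and no term for a difference between cell types. The cell types were T follicular helper (Tfh) cells, sorted as CXCR5+ PD-1+, and non-Tfh cells, sorted as CXCR5- PD-1-, both among Thy-1.1+ CD44hi cells. Each combination of vector and cell type had 2 libraries, so each arm of the comparison had 2 Tfh and 2 non-Tfh libraries.

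The T cells came from Smarta mice, which carry a transgenic T cell receptor for the GP61-80 peptide, crossed to CreERT2 mice, whose Cre recombinase acts when tamoxifen is given. They were transduced with a retrovirus carrying inducible Bach2 or with the empty control virus, moved into C57BL/6 hosts, and activated by s.c. immunization with the nitrophenol hapten and GP61-80 on mouse serum albumin. Tamoxifen was injected i.p. on day 5, and cells were taken 18 hours later, on day 6, from inguinal lymph nodes that had been pooled. The empty vector groups therefore also carry CreERT2, and the protocol is given for all samples alike. The labels give no age of the mice, no reporter of the vector and no promoter for CreERT2. The labels do not say whether libraries of a group came from separate pools of mice, or whether a Tfh and a non-Tfh library of the same number came from the same pool. The p-values therefore measure the spread between these libraries, which may be technical.

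Bach2 is a transcription factor of the basic leucine zipper family. It pairs with small Maf proteins and binds DNA sites that overlap those of AP-1, the Fos and Jun factors that act downstream of the T cell receptor, and it mainly represses. In lymphocytes it is known for holding back effector differentiation and for preserving naive, memory and regulatory T cells. Tfh cells help B cells in the follicle and depend on the repressor Bcl6, which opposes Prdm1 (Blimp-1), a repressor found in other effector cells.

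The libraries held between 7862879 and 9889859 counts and 14689 to 15167 detected genes, and 11475 genes passed the filter on low counts. Levels are counts per 1000000 counts of a library (CPM) after trimmed mean (TMM) scaling. A count of 0 in a library allows up to 3 counts at 95% confidence, which is 0.301 to 0.380 CPM and covers counting error only. Cxcr5, the receptor that the sort required in Tfh cells, ran from 577 to 815 CPM in Tfh libraries and from 17.4 to 28.3 CPM in non-Tfh libraries, and Trac, Cd3e and Cd4 were high in all 8. None of the 10 CD4 T cell markers was called, and their summed level was 15272 to 19786 CPM with empty vector and 16273 to 21501 CPM with Bach2. Of 7 tested B cell markers, Cd22 fell, and the summed B cell level overlapped between vectors (448 to 1022 CPM against 405 to 1009 CPM). The share of mitochondrial counts was 0.860% to 1.10% with empty vector and 0.944% to 1.26% with Bach2. The NK cell markers Ncr1, Klra4 and Klra8 and the neutrophil markers S100a8 and S100a9 were at 0 in every library, but other members of their lists were not. Summed NK cell markers had 11.8 to 65.5 CPM with empty vector and 20.1 to 101 with Bach2. Summed myeloid markers had 78.2 to 109 and 82.3 to 96.1 CPM, and stromal and endothelial markers 183 to 237 and 178 to 282 CPM. No tested member of these lists was called.

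Bach2 itself, at 4:32238804-32586108 of GRCm38, was measured at 11.2 and 14.05 CPM in Tfh cells with empty vector, 121 and 135 with Bach2, 24.9 and 28.9 in non-Tfh cells with empty vector and 131 and 158 with Bach2. All 4 Bach2 libraries were above all 4 empty vector libraries, with a common log2 fold change of 2.84 (SE 0.187, adjusted p = 0.000248). With empty vector the level was lower in the Tfh libraries, and the fold was 3.35 in Tfh cells and 2.42 in non-Tfh cells on the log2 scale. Counts from the vector and from the cell's own gene cannot be told apart.

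The common effect reached 566 genes, 4.93% of the 11475 tested, at an adjusted p under 0.05. Of these, 280 rose (2.44%) and 286 fell (2.49%). Most changes were small: the median log2 fold change was 0.37 among the genes that rose and -0.46 among those that fell. Larger changes were mostly falls, since 11 genes rose and 38 fell at least 2-fold. All adjusted p-values of the common effect come from edgeR's robust quasi-likelihood test with Benjamini-Hochberg adjustment over the 11475 genes. If the Tfh and non-Tfh libraries of one vector and number are treated as coming from a shared source, a limma-voom fit called 282 genes, 278 of them among the 566. Leaving out 1 library gave between 158 genes (without Bach2 non-Tfh replicate 2) and 839 genes (without Bach2 non-Tfh replicate 1). Of the 105 named genes that passed, 58 to 97 passed again in these fits, and none changed direction.

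The 5 smallest p-values in each direction belonged to S100a4, Ifi204, Cdkn1a, Map2k3 and 6430562O15Rik among falls, and to Xdh, Bach2, Btg1, Lef1 and Gramd1a among rises. S100a4, a calcium-binding protein of motile and activated cells (3:90603771-90606045), had 78.9 and 80.7 CPM in Tfh cells with empty vector, 39.5 and 38.2 with Bach2, 311 and 278 in non-Tfh cells with empty vector and 129 and 151 with Bach2. Each Bach2 pair lay below its empty vector pair (log2 fold change -1.06, SE 0.0688, adjusted p = 2.06e-06). Ifi204, an interferon-induced DNA sensor of a family with near-identical copies, so that its share of their reads is uncertain, was measured at 83.6 and 120.3 CPM with empty vector against 37.5 and 30.7 with Bach2 in Tfh cells, and 133 and 161 against 44.97 and 46.8 in non-Tfh cells. Its Bach2 libraries were all below its empty vector libraries (log2 fold change -1.63, SE 0.117, adjusted p = 3.57e-05). Cdkn1a, the gene of p21, an inhibitor of cyclin-dependent kinases (17:29090976-29100727), had 21.1 and 20.9 CPM in Tfh cells with empty vector, 10.4 and 7.97 with Bach2, 47.4 and 45.96 in non-Tfh cells with empty vector and 21.4 and 20.5 with Bach2. Non-Tfh cells with Bach2 came down to the level of Tfh cells with empty vector (log2 fold change -1.17, SE 0.108, adjusted p = 7.67e-05). Map2k3, a kinase that activates p38, had 201 and 204 CPM with empty vector against 129 and 101 with Bach2 in Tfh cells, and 191 and 193 against 105 and 122 in non-Tfh cells, with no overlap between vectors (log2 fold change -0.78, SE 0.0755).

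Among rises, Xdh, the xanthine dehydrogenase of purine breakdown, had 65.3 and 59.7 CPM in Tfh cells with empty vector, 99.5 and 96.8 with Bach2, 107 and 106 in non-Tfh cells with empty vector and 161 and 193 with Bach2. Levels were higher in non-Tfh cells, and within each cell type the Bach2 libraries were the higher (log2 fold change 0.69, SE 0.0715, adjusted p = 0.000208). Btg1, an antiproliferative gene of resting lymphocytes (10:96617006-96622809), had 537 and 546 CPM with empty vector against 739 and 785 with Bach2 in Tfh cells, and 662 and 621 against 873 and 908 in non-Tfh cells. All 4 of its Bach2 libraries lay above all 4 others (log2 fold change 0.48, SE 0.0520, adjusted p = 0.000248). Lef1, a partner of Tcf7 in keeping T cells naive or stem-like (3:131110471-131224356), had 308 and 323 CPM in Tfh cells with empty vector, 472 and 441 with Bach2, 183 and 156 in non-Tfh cells with empty vector and 265 and 247 with Bach2. Gramd1a, a cholesterol transfer protein of the endoplasmic reticulum, rose by 0.48 on the log2 scale (SE 0.0598) with no overlap between vectors. Under the shared-source fit these 10 genes, Bach2 and 6430562O15Rik included, were still past the threshold.

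**Figure D1:**
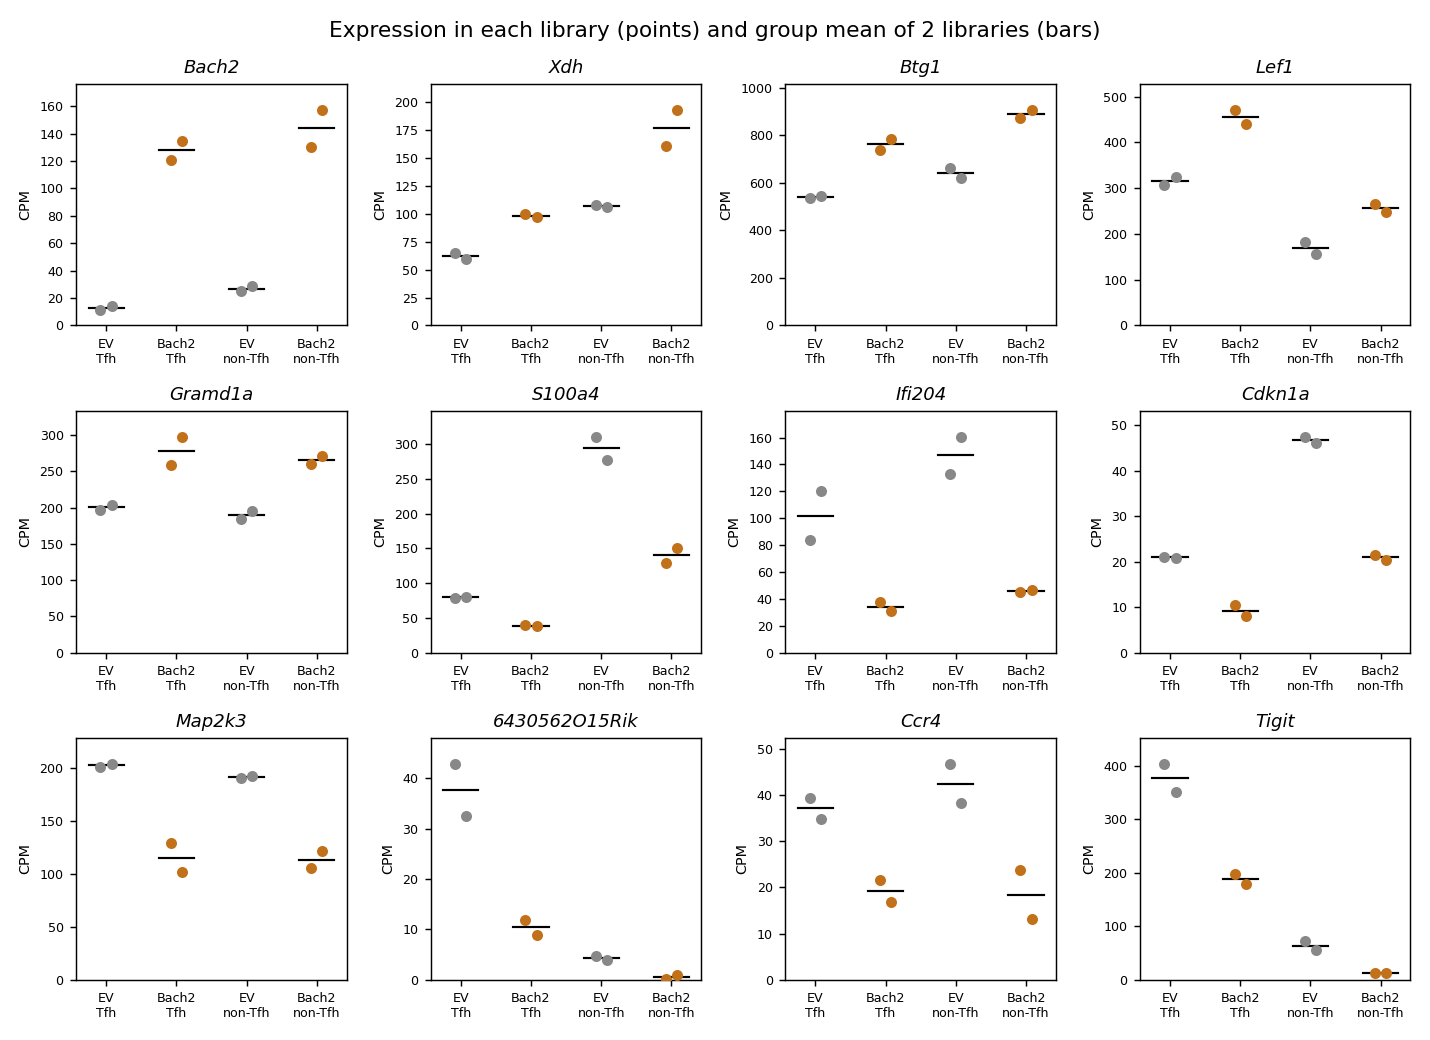
Level of 12 genes in each of the 8 libraries, in CPM on an axis of its own for each gene, with the libraries grouped by cell type and vector and the group means marked. S100a4, Ifi204, Cdkn1a and Map2k3 are lower and Xdh, Btg1, Lef1 and Gramd1a higher with Bach2 in both cell types, whatever the level with empty vector.

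An additive effect presumes that both cell types move together, and this was examined with the effect fitted separately in each. The Tfh and the non-Tfh contrast share no library, while both share their libraries with the common effect. The labels do not say whether the Tfh and non-Tfh libraries of a vector came from shared pools, so the contrasts may not be independent. In Tfh cells 196 genes were called (1.71%), of which 63 rose (0.549%) and 133 fell (1.16%). In non-Tfh cells 100 were called (0.871%), of which 29 rose (0.253%) and 71 fell (0.619%). The 28 called in both are 14.3% of the Tfh calls and 28% of the non-Tfh calls. Of the 196 Tfh calls, 190 had the same sign in non-Tfh cells (96.9%), and of the 100 non-Tfh calls 92 had the same sign in Tfh cells (92%), against 65.4% of all genes. The sizes were smaller in the other cell type. Genes that fell in Tfh cells had a median log2 change of -0.74 there and -0.21 in non-Tfh cells. Genes that fell in non-Tfh cells had -0.81 there and -0.42 in Tfh cells. For rises besides Bach2 the medians were 0.50 and 0.29 for Tfh calls, and 0.63 and 0.49 for non-Tfh calls. Each set was chosen by its change in 1 cell type, so a smaller size in the other follows in part from the choice. Across all genes, which are not independent replicates, the Pearson correlation of the contrasts was 0.31 and the Spearman correlation 0.38. Of the 566 common genes, 374 were called in neither cell type by itself, where only 2 libraries stand against 2. The model that adds them favours genes with like changes, so the direction shared by 565 of the 566 is a property of the choice. The exception, named after its values were seen, was Il17re, a receptor subunit for IL-17 cytokines, with log2 changes of 0.27 in Tfh and -1.96 in non-Tfh cells, and under 0.50 CPM in the Tfh libraries.

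**Figure D2:**
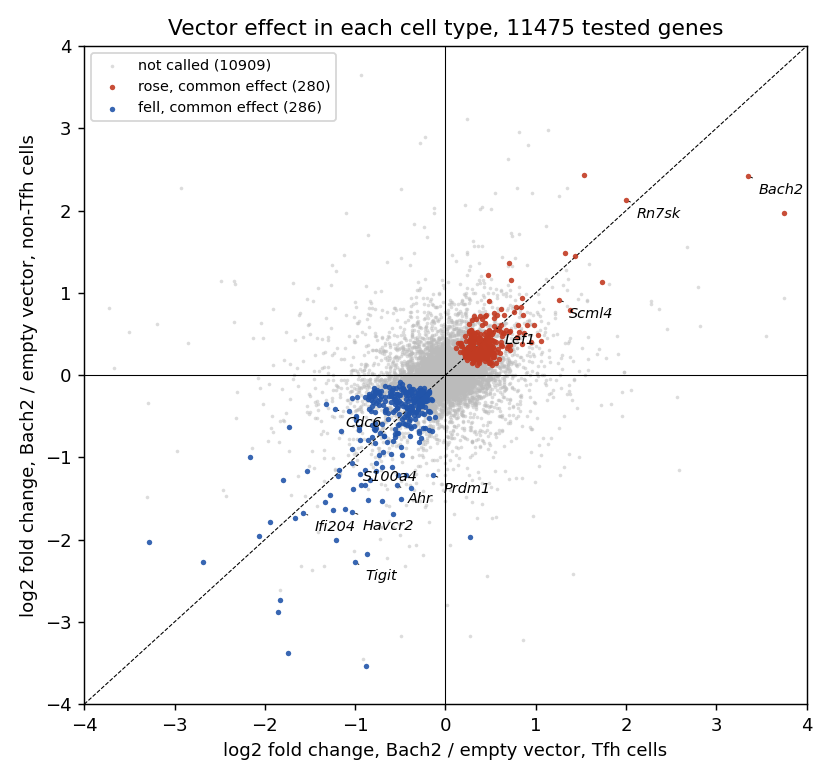
Log2 fold change of Bach2 against empty vector in Tfh cells (x axis) and non-Tfh cells (y axis) for the genes tested, with the genes called for the common effect coloured by direction. Called genes lie along the rising diagonal, and 18 genes lie outside the axes.

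A test of the difference between the cell types called 0 genes (0%) in edgeR (6 in DESeq2), with 539 genes at an unadjusted p under 0.05, or 4.70% of all. Among the 566 common genes 70 were at that level, or 12.4%. The lowest adjusted p of this test was 0.131, for B4galnt4, which was called in non-Tfh cells alone, and for Tigit, an inhibitory receptor that competes with Cd226 for shared ligands. Tigit had 403 and 351 CPM in Tfh cells with empty vector, 198 and 179 with Bach2, 72.8 and 55.3 in non-Tfh cells with empty vector and 12.9 and 13.6 with Bach2. The fall was -1.003 in Tfh and -2.27 in non-Tfh cells on the log2 scale, and the single common value had a wide error (log2 fold change -1.49, SE 0.273, adjusted p = 0.0416). It was lost in 10 of 18 other settings, the shared-source fit included (adjusted p = 0.0541). Cd226 itself was level, with 16.3 and 15.9 CPM with empty vector against 15.1 and 17.8 with Bach2 in Tfh cells, and 95.01 and 83.7 against 88.1 and 92.2 in non-Tfh cells (adjusted p = 0.939), and Cd96, another receptor of that family, rose by 0.38 (SE 0.0603).

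The 12 largest rises and 12 largest falls were of mixed kinds. They were taken among called genes without overlap within either cell type and with a mean of at least 5 CPM in some group. The rule also required the same direction in both cell types. Rn7sk, the small nuclear RNA that holds the elongation factor P-TEFb inactive, had the largest rise under this rule besides Bach2, at 12.1 and 7.34 CPM with empty vector against 49.9 and 28.7 with Bach2 in Tfh cells, and 17.1 and 8.79 against 71.8 and 41.8 in non-Tfh cells. Its replicate 1 libraries were the higher in all 4 groups (log2 fold change 2.07, SE 0.312, adjusted p = 0.0164), and the RNA has no poly(A) tail, from which this kit primes. Scml4, a Polycomb-group gene of lymphocytes, had 9.93 and 9.49 CPM in Tfh cells with empty vector, 17.4 and 29.2 with Bach2, 67.1 and 64.9 in non-Tfh cells with empty vector and 116 and 133 with Bach2 and rose by 1.04 on the log2 scale. St8sia6, a sialyltransferase, rose by 1.44 (SE 0.344), Igfbp4, a growth factor binding protein high in naive T cells, by 1.08 (SE 0.250), and Gpr34, a lysophosphatidylserine receptor, by 1.45 (SE 0.312). These 3 were expressed mainly in non-Tfh cells, where Gpr34 went from 2.62 and 3.23 CPM to 8.19 and 7.81 CPM. Tent5a, an RNA-tailing enzyme, and the neurotrophin receptor Ntrk3 were also among the rises, as were Art2a-ps (a close copy of another gene), Gm45837 (which overlaps Arap1), Cacna2d4, Tdrp and Gm14085. Ntrk3, Cacna2d4, Gm45837, Art2a-ps and Igfbp4 lost their calls under the shared-source fit (limma-voom adjusted p from 0.0502 to 0.0954). With 1 library left out, Ntrk3 was called in 1 of 8 fits, Cacna2d4, Igfbp4 and St8sia6 in 2, Gm45837 and Art2a-ps in 3, and Gpr34 and Tent5a in 5.

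The largest falls under the same rule were in Map1b (log2 fold change -2.13, SE 0.424), a microtubule-associated protein, and in 6430562O15Rik (-2.04, SE 0.231). Map1b was not past the threshold under the shared-source fit (limma-voom adjusted p = 0.0795). 6430562O15Rik had 42.8 and 32.5 CPM with empty vector against 11.9 and 8.94 with Bach2 in Tfh cells, and 4.80 and 3.90 against 0.218 and 0.925 in non-Tfh cells, with the lowest library at 0.218 CPM, under the 3-count limit. It lies 8569 bases from Map1b on chromosome 13 and overlaps Mrps27 on the opposite strand, and this kit does not mark strand. Matn2, a matrix protein, had 2.81 and 3.04 CPM in Tfh cells with empty vector, 0.543 and 0.846 with Bach2, 15.2 and 25.04 in non-Tfh cells with empty vector and 3.27 and 6.99 with Bach2, lower with Bach2 in both cell types (log2 fold change -1.98, SE 0.276). Sema7a, a membrane-anchored semaphorin, fell by 1.48, Nrgn, which binds calmodulin, by 1.44, and the protease gene Adam8 by 1.25 on the log2 scale. Cxcl10, a chemokine that draws CXCR3+ cells, had 4.92 and 5.69 CPM with empty vector against 2.50 and 1.09 with Bach2 in Tfh cells, and 9.27 and 11.4 against 4.47 and 4.73 in non-Tfh cells, with every Bach2 library below every other. Its locus overlaps Art3 on the opposite strand, as Tnfrsf9 overlaps Camta1, Gpr15 Cpox, Gpr34 Cask, Gpr183 Ubac2 and Cyp51 Akap9, so their reads may be shared.

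**Figure D3:**
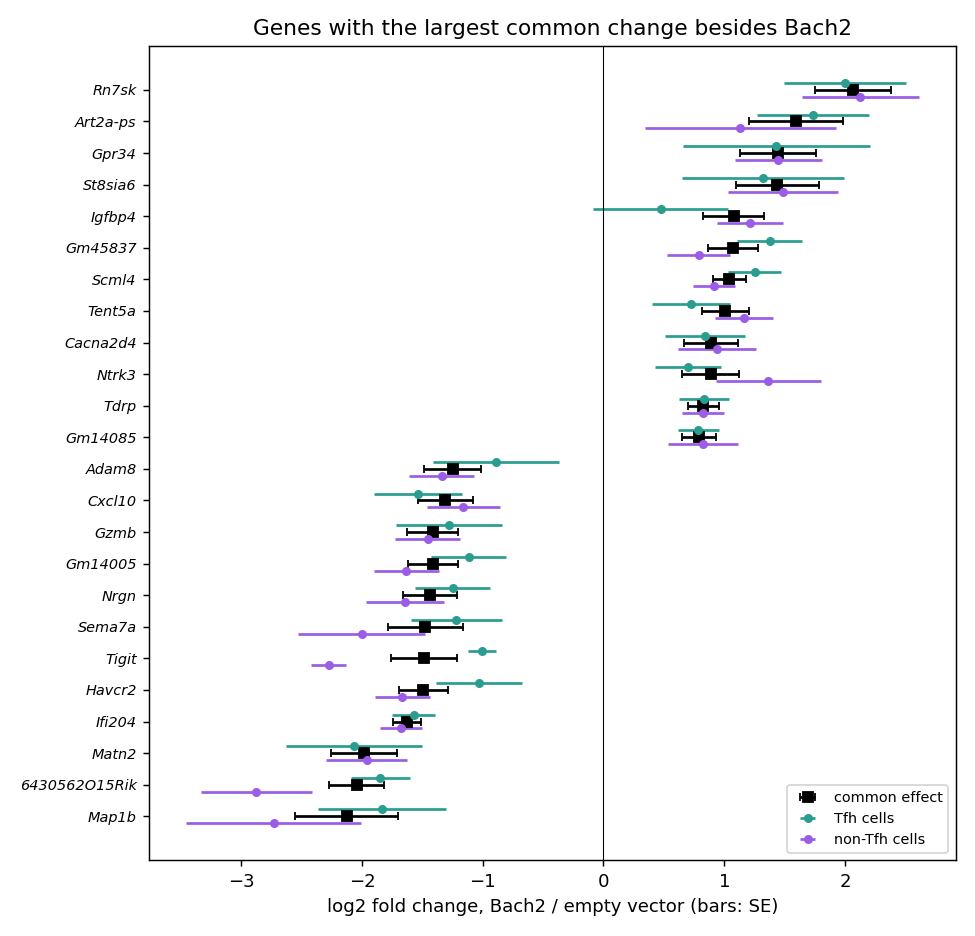
Common log2 fold change with its standard error for the 12 largest rises and 12 largest falls under the rule in the text, with the Tfh and the non-Tfh estimate beside each. Falls reach -2.13 (Map1b) and rises 2.07 (Rn7sk). Both estimates of every gene lie on the same side of 0, because the rule required the same direction in both cell types.

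The counts of called members in the lists that follow stand against 2.44% of all tested genes that rose and 2.49% that fell. In the naive and memory programme every call was a rise. Of its 30 members, all tested, 13 rose and 0 fell, with a median log2 fold change of 0.33 against 0.00035 over all genes (0.42 in Tfh, 0.23 in non-Tfh cells). Bach2 is one of the 13. Foxp1, a factor that keeps naive T cells quiescent, had 129 and 137 CPM in Tfh cells with empty vector, 193 and 205 with Bach2, 140.1 and 145 in non-Tfh cells with empty vector and 174 and 182 with Bach2, without overlap between vectors (log2 fold change 0.45, SE 0.0669). Foxo1, which drives homing and survival genes of resting T cells, rose by 0.31 (SE 0.0604), Tcf7, the partner of Lef1, by 0.30 (SE 0.0625), and Bcl2, which opposes apoptosis, by 0.62 (SE 0.0983). Ccr7, the receptor that brings T cells into the T zone, had 114 and 165 CPM with empty vector against 198 and 289 with Bach2 in Tfh cells, and 433 and 398 against 631 and 639 in non-Tfh cells. It was higher with Bach2 within both cell types (log2 fold change 0.70, adjusted p = 0.0313), but its call was lost in 5 of 8 fits with 1 library left out. Pik3ip1, an inhibitor of PI3 kinase, rose by 0.65 (SE 0.0921), and Actn1, Itga6, Klf3, Igfbp4 and Zfp36l2 rose too. S1pr1 and Klf2, which serve T cell trafficking, did not pass (log2 fold changes 0.35 and 0.42; adjusted p = 0.230 and 0.371), and Il7r had an estimate of -0.04 (adjusted p = 0.938). With 1 library left out, the list had between 8 (without Bach2 non-Tfh replicate 2) and 13 rises and no fall. DESeq2, the mean of the 4-group model and the fit without a low-count filter each called 1 fall. In the separate non-Tfh contrast 1 member fell.

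Among 45 other T helper transcription factors, 10 rose and 3 fell (median 0.13). Besides those named, Runx1, a factor of T cell development, rose by 0.54 (SE 0.0924), Id3, an inhibitor of E proteins, by 0.35 (SE 0.0644), and Scml4, Klf3, Stat5b and Nr3c1 rose. The 3 falls were Bcl6, Prdm1 and Hif1a. Bcl6 had 159 and 135 CPM in Tfh cells with empty vector, 119.9 and 102 with Bach2, 20.6 and 24.2 in non-Tfh cells with empty vector and 16.4 and 13.98 with Bach2 (log2 fold change -0.47, SE 0.0948, adjusted p = 0.0145). Prdm1 had 2.41 and 2.91 CPM with empty vector against 3.04 and 1.69 with Bach2 in Tfh cells, and 29.7 and 27.4 against 10.04 and 14.5 in non-Tfh cells. Its Tfh libraries were low and overlapped between vectors, and the log2 change was -1.21 in non-Tfh and -0.14 in Tfh cells (unadjusted p of the difference 0.0256, not past adjustment). Bcl6 was called in 5 and Prdm1 in 2 of the 8 fits with 1 library left out, and the 10 rises of the list became 6 without Bach2 non-Tfh replicate 2. Tbx21, Id2 and Gata3 did not pass (log2 fold changes -0.07, -0.00376 and 0.23; adjusted p = 0.812, 0.993 and 0.164). Of the 9 Bach, CNC and small Maf genes only Bach2 was called. Of 15 AP-1, BATF and IRF factors Irf8 (-0.46, SE 0.0780) and Maf (-0.35, SE 0.0865) fell and none rose. Under the shared-source fit Irf8 kept its call and Maf lost it (limma-voom adjusted p = 0.0104 and 0.0831).

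In the Th1 and effector programme every call was a fall: 15 of 40 tested members (37.5%) fell and 0 rose (median -0.39). In sorted bulk samples, fewer cells of an effector type and less RNA per cell cannot be told apart. Ifng, the cytokine interferon gamma, had 19.4 and 18.1 CPM in Tfh cells with empty vector, 7.60 and 13.5 with Bach2, 93.04 and 70.4 in non-Tfh cells with empty vector and 32.3 and 35.5 with Bach2, lower with Bach2 in each cell type (log2 fold change -1.10, SE 0.159, adjusted p = 0.00358). Gzmb, a cytotoxic granule protease with close copies, had 5.72 and 10.2 CPM with empty vector against 1.95 and 4.59 with Bach2 in Tfh cells, and 105 and 116 against 33.1 and 47.5 in non-Tfh cells (log2 fold change -1.41, SE 0.211). Havcr2, the gene of the checkpoint receptor TIM-3, had 5.52 and 4.81 CPM in Tfh cells with empty vector, 1.41 and 3.74 with Bach2, 46.5 and 50.97 in non-Tfh cells with empty vector and 12.99 and 17.7 with Bach2. Both genes were expressed mostly in non-Tfh cells, where Bach2 libraries were well below the others. Tnf, the IL-12 receptor chains Il12rb1 and Il12rb2, Il18rap, Cxcr6, Lgals1, Anxa1, Il2ra, Prdm1, Ccl3 and Ccl4 also fell. Ccl3, whose copies make its reads uncertain, was at or under 0.301 CPM in all Tfh libraries, and in non-Tfh cells went from 3.82 and 4.12 CPM to 0.218 and 0.514 CPM. Tbx21 (T-bet), the lineage factor of this programme, was not called. The number of falls was between 8 (without EV non-Tfh replicate 2) and 14 with 1 library left out. Some fits also called rises, 1 each without EV Tfh replicate 2 and without Bach2 Tfh replicate 1. DESeq2, the shared-source fit and non-robust estimation also called 1 each. Limma-voom without the block called 2, and the fixed replicate block and the fit without a low-count filter 4 each.

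Of 13 tested Th17 genes, 3 fell: Ahr, Il17f and Il22. Ahr, a ligand-activated receptor for aromatic compounds that promotes IL-22, had 18.7 and 19.9 CPM with empty vector against 12.3 and 14.3 with Bach2 in Tfh cells, and 73.6 and 73.1 against 32.96 and 25.3 in non-Tfh cells, and the fall was larger in non-Tfh cells (-1.33) than in Tfh cells (-0.54; unadjusted p of the difference 0.00302, not past adjustment). Il17f was between 0 and 0.401 CPM in Tfh libraries, and in non-Tfh cells had 7.09 and 5.45 CPM with empty vector and 0.437 and 0.617 CPM with Bach2. The list's falls ran from 1 (without EV non-Tfh replicate 1 or Bach2 non-Tfh replicate 2) to 6 (without Bach2 non-Tfh replicate 1), with 1 in DESeq2. Ahr was called in 8, Il17f in 6 and Il22 in 1 of the 8 fits with 1 library left out, and Il22 was lost under the shared-source fit (limma-voom adjusted p = 0.0653).

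In the Tfh programme 7 of 31 tested members fell and 2 rose, with a median of -0.25 (-0.19 in Tfh, -0.37 in non-Tfh cells). Icos, a costimulatory receptor that Tfh cells need, had 585 and 747 CPM in Tfh cells with empty vector, 542 and 586 with Bach2, 938 and 915 in non-Tfh cells with empty vector and 693 and 641 with Bach2: the Tfh libraries overlapped by vector and the non-Tfh libraries did not (log2 fold change -0.36, SE 0.0776). Cd40lg, the ligand by which helper cells act on B cells, had 213 and 191 CPM with empty vector against 182 and 145 with Bach2 in Tfh cells, and 164 and 167 against 141 and 127 in non-Tfh cells (log2 fold change -0.31, SE 0.0740, adjusted p = 0.0315). Icos was called in 4 and Cd40lg in 3 of the 8 fits with 1 library left out. Rgs16, a brake on chemokine receptors, fell by 0.87, and Gpr183, an oxysterol receptor that guides cells to the follicle border, by 0.34, and Bcl6, Maf and Tigit complete the 7. The 2 rises were Il6ra and Zfp831, and neither was called in 6 of the 8 fits with 1 library left out or in the shared-source fit, which called 3 falls. Il21, the cytokine of Tfh cells, was just outside the threshold with 394 and 297 CPM in Tfh cells with empty vector, 233 and 207 with Bach2, 62.4 and 55.98 in non-Tfh cells with empty vector and 28.8 and 16.5 with Bach2. It was lower with Bach2 within both cell types (log2 fold change -0.95, SE 0.215, adjusted p = 0.0576). Cxcr5 and Pdcd1, which the sort used, did not pass (adjusted p = 0.337 and 0.399). With 1 library left out the falls numbered 1 (without EV Tfh replicate 1 or Bach2 non-Tfh replicate 2) to 7.

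Of 29 inhibitory and costimulatory receptors, 8 fell and 1 rose (Cd96), and 4 fell without EV non-Tfh replicate 2 or Bach2 non-Tfh replicate 2. Tnfrsf9 (4-1BB), a costimulatory receptor of recently activated cells, had 85.7 and 86.6 CPM with empty vector against 60.98 and 52.3 with Bach2 in Tfh cells, and 71.8 and 56.1 against 33.5 and 32.3 in non-Tfh cells (log2 fold change -0.77, SE 0.101, adjusted p = 0.00116). Cd200r1 (-0.64, SE 0.118), Tnfrsf4 (OX40) and Lair1 fell as well. Of 33 migration receptors and integrins, 4 fell and 3 rose. Ccr4, a receptor for skin-homing chemokines, had 39.3 and 34.8 CPM in Tfh cells with empty vector, 21.6 and 16.8 with Bach2, 46.7 and 38.2 in non-Tfh cells with empty vector and 23.8 and 13.1 with Bach2, with all 4 Bach2 libraries below the others (log2 fold change -1.08, SE 0.166, adjusted p = 0.00533). Gpr15, a gut-homing receptor, had 8.83 and 7.21 CPM with empty vector against 6.73 and 4.71 with Bach2 in Tfh cells, and 83.3 and 81.5 against 32.9 and 25.2 in non-Tfh cells, and its fall was larger in non-Tfh cells (-1.51) than in Tfh cells (-0.49; unadjusted p of the difference 0.00276). The 3 rises were Ccr7 and the integrin chains Itga6 (0.61, SE 0.0909) and Itgav (0.46, SE 0.0837).

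A list of 29 tested genes that earlier work reported as repressed by Bach2 had 15 falls and 0 rises, with a median of -0.66. S100a4, Ifng, Gzmb, Havcr2, Tnfrsf9, Tnfrsf4, Ahr, Ccr4, Il12rb1, Il12rb2, Il18rap, Cxcr6, Il2ra, Prdm1 and Hmox1 are the 15. The list was put together from reports on this factor and overlaps the effector list, so its direction is not independent evidence. Il2ra, the high-affinity chain of the IL-2 receptor, had 9.03 and 7.09 CPM in Tfh cells with empty vector, 4.56 and 6.52 with Bach2, 123 and 130.4 in non-Tfh cells with empty vector and 86.2 and 103 with Bach2 (log2 fold change -0.46, SE 0.109, adjusted p = 0.0293). Hmox1, the heme oxygenase and a classic target of the related factor Bach1, had 29.8 and 20.8 CPM with empty vector against 17.3 and 18.96 with Bach2 in Tfh cells, and 13.4 and 13.02 against 6.66 and 7.71 in non-Tfh cells (log2 fold change -0.66, SE 0.148), and like Il2ra was called in 4 of the 8 fits with 1 library left out. In the heme and oxidative stress list 4 of 26 fell and none rose: Hmox1, Gsr, Txn1 and Prdx1. Hmox1 and Txn1 lost their calls under the shared-source fit (limma-voom adjusted p = 0.0669 and 0.0878). Txn1 was called in 1 of the 8 fits with 1 library left out. Prdx1, a peroxidase, had 622 and 673 CPM in Tfh cells with empty vector, 503 and 457 with Bach2, 609 and 659 in non-Tfh cells with empty vector and 443 and 445 with Bach2, without overlap by vector (log2 fold change -0.47, SE 0.0574, adjusted p = 0.000705).

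**Figure D4:**
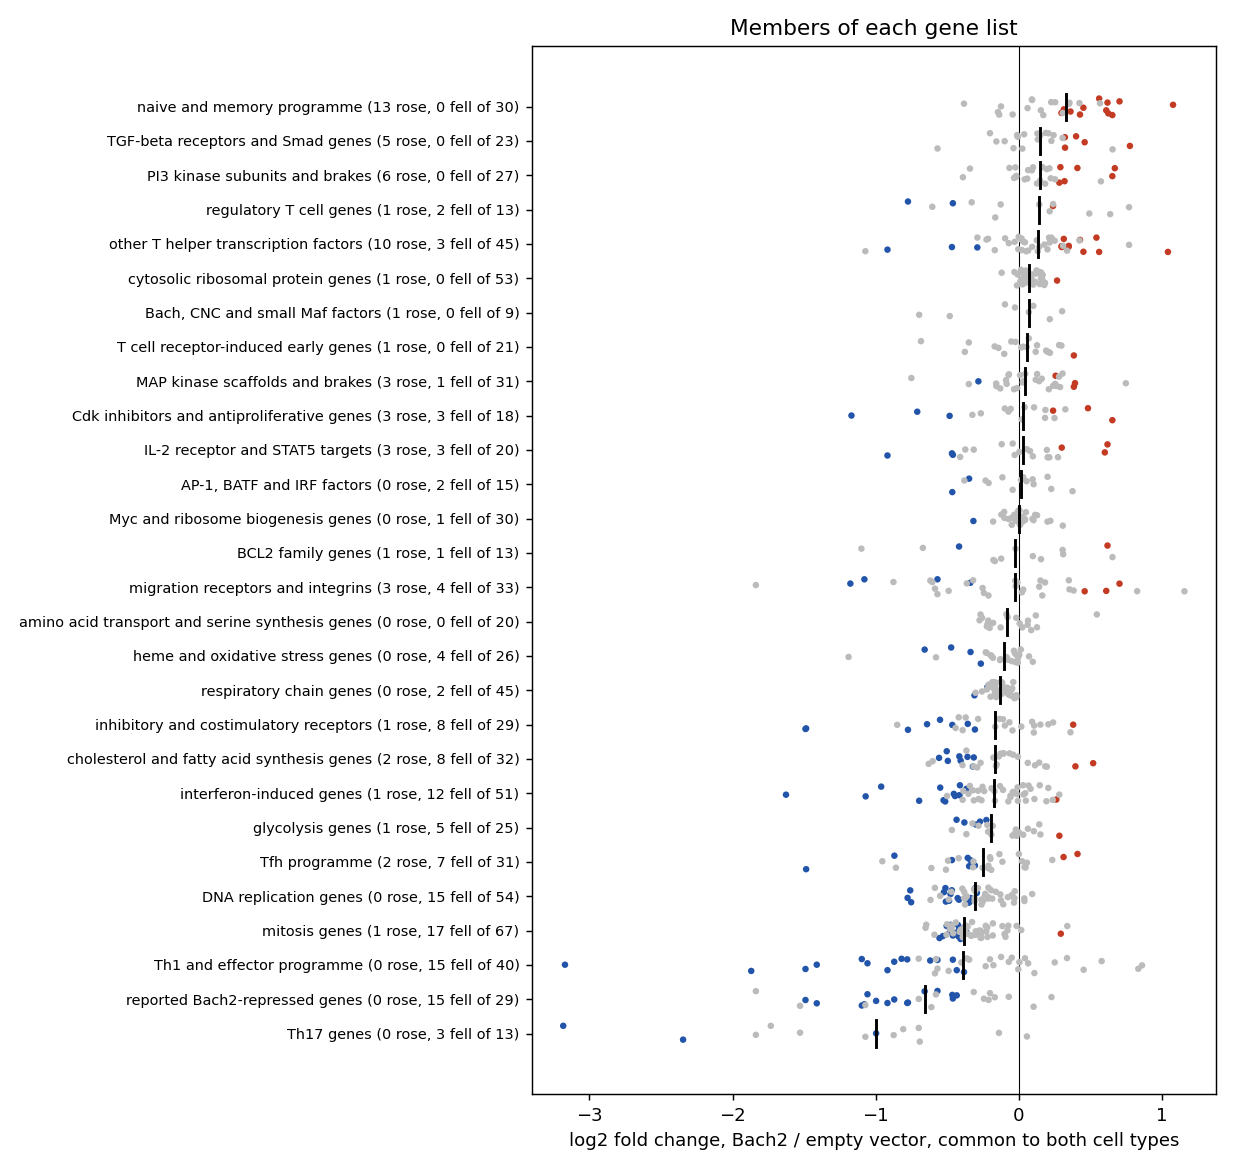
Common log2 fold change of every tested member of 28 gene lists (1 point per gene, called rises in red and falls in blue), with the list's median as a bar and the counts that rose and fell. Bach2 is not drawn but stays in counts and medians. The median of the naive list is right of 0, with 13 rises and no fall, and those of the effector and Bach2-repressed lists are left of 0, with 15 falls each.

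The letters of the AP-1 site, TGACTCA, were looked up in the promoters of the genes that fell, because Bach2 with small Maf partners is known to bind sites that contain them. RefSeq promoters of GRCm38.p6, 250 bases before to 50 after a gene's start, were matched for 8721 of the 11475 genes. TGACTCA, on either strand (hence also TGAGTCA), was in 7.87% of the promoters of genes that fell (17 of 216), 4.04% of those that rose (8 of 198) and 4.13% of all. TGANTCA, which includes it, was in 11.1%, 6.57% and 5.63%. A longer pattern, TGANTCA with further fixed letters before it, was also looked up. It was in 1 promoter of genes that fell (0.463%), 1 of those that rose (0.505%) and 30 of all (0.344%). Matches to the longer pattern were too few for its shares to be compared. Of the named genes, 6 of 49 that fell and 0 of 29 that rose had TGACTCA on either strand, the sixth being Tnfrsf9, whose window overlaps an exon and is not shown. The windows below, of 101 bases each, are the promoters of named genes that fell and hold such a match outside annotated exons. They are written 5′ to 3′ on the gene's strand, with the match in capitals. A match is a description of the letters, and binding was not measured.
Ccr4, chr9:114496634-114496734, match at -143: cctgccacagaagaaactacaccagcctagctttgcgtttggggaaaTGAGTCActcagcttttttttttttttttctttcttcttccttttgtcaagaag
Cxcl10, chr5:92348910-92349010, match at -74: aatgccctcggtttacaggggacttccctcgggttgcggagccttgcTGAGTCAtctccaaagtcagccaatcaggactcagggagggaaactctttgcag
Gzmb, chr14:56262339-56262439, match at -58: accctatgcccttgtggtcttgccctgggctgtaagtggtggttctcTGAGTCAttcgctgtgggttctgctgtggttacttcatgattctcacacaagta
Prdx1, chr4:116685421-116685521, match at -131: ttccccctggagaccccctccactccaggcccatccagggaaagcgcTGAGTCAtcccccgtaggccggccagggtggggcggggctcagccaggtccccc
Aldoa, chr7:126799404-126799504, match at -218: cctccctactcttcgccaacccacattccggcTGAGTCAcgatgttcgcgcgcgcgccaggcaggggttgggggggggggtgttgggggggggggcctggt
Ccr4, Cxcl10, Gzmb and Aldoa are on the minus strand and Prdx1 on the plus strand, and positions count from the gene's start. Prdx1 has another match at -237. These 5 genes differed widely in level and in the size of their fall, from -0.38 (Aldoa) to -1.41 (Gzmb) on the log2 scale.

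Cell cycle genes that passed fell, with 1 exception. Of 54 DNA replication genes 15 fell and 0 rose, with a median of -0.31 (-0.52 in Tfh, -0.13 in non-Tfh cells). Mitosis genes numbered 67, of which 17 fell and 1 rose (Smc4), with a median of -0.38 (-0.61 and -0.14). In the separate contrasts 22 replication and 31 mitosis genes fell in Tfh cells, where 1.16% of all genes fell. In non-Tfh cells 0 of either fell, which is near the 0.619% of all genes that fell there. The non-Tfh estimate was the higher for 51 of 54 and 64 of 67. The difference between cell types had an unadjusted p under 0.05 for 28 and 35 of them, and none passed adjustment. Cdc6, which loads the replicative helicase, had 34.8 and 38.8 CPM in Tfh cells with empty vector, 13.7 and 17.9 with Bach2, 52.6 and 55.2 in non-Tfh cells with empty vector and 43.2 and 38.02 with Bach2 (log2 change -1.22 in Tfh, -0.41 in non-Tfh cells). Ccnb1, the cyclin of mitotic entry, had 96.01 and 109.7 CPM with empty vector against 56.4 and 69.3 with Bach2 in Tfh cells, and 96.1 and 106 against 86.8 and 82.9 in non-Tfh cells (common log2 fold change -0.48, SE 0.102, adjusted p = 0.0204). Clspn, a checkpoint adaptor (-0.75, SE 0.149), Rrm1, a ribonucleotide reductase subunit (-0.42, SE 0.0868), Bub1b, of the spindle checkpoint (-0.50, SE 0.0977), and Kif2c, a kinetochore motor (-0.55, SE 0.120), also fell. Kif2c and Cdc6 lost their calls under the shared-source fit (limma-voom adjusted p = 0.0546 and 0.0542). Mki67 did not pass, with 171 and 203 CPM in Tfh cells with empty vector, 133 and 147 with Bach2, 187 and 222 in non-Tfh cells with empty vector and 193 and 205 with Bach2 (adjusted p = 0.183).

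These counts turned on single libraries. Without Bach2 Tfh replicate 2 none of the mitosis genes fell, and 31 did without Bach2 non-Tfh replicate 1. For replication genes the count ran from 2 (without EV Tfh replicate 1 or Bach2 non-Tfh replicate 2) to 29 (without Bach2 non-Tfh replicate 1), and the shared-source fit called 3 replication and 4 mitosis genes lower. Among 18 Cdk inhibitors and antiproliferative genes, Btg1, Btg2 and Pik3ip1 rose, and Cdkn1a, Gadd45g and Gadd45b fell. Gadd45g, a stress-induced growth arrest gene, had 9.23 and 8.73 CPM with empty vector against 4.45 and 6.52 with Bach2 in Tfh cells, and 24.8 and 26.4 against 17.2 and 14.2 in non-Tfh cells (log2 fold change -0.71, SE 0.144).

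**Figure D5:**
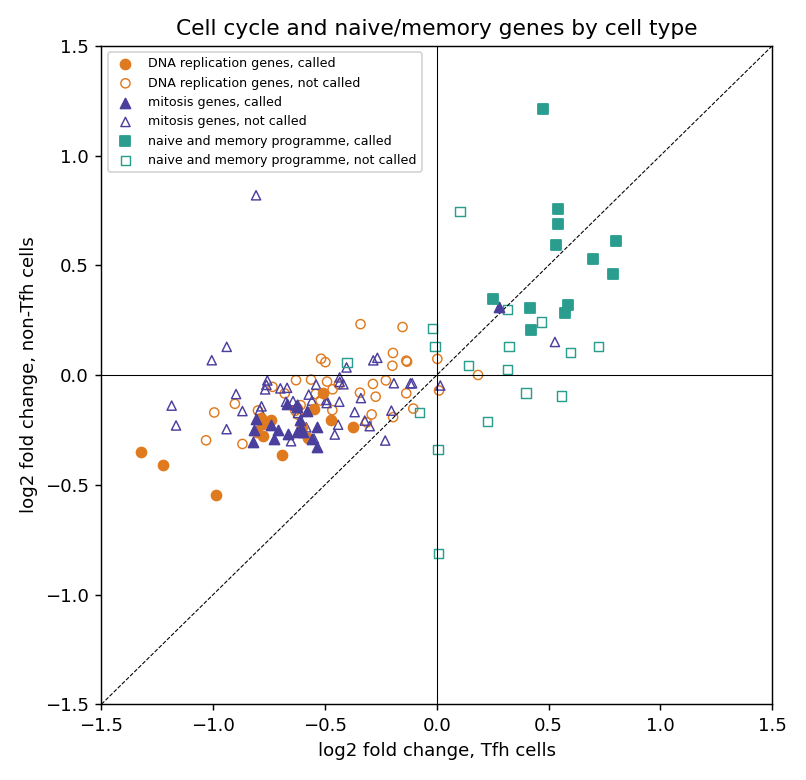
Log2 fold change in Tfh cells (x axis) against non-Tfh cells (y axis) for the tested members of the DNA replication, mitosis and naive lists (1 point per gene, Bach2 not drawn). Most replication and mitosis genes lie left of 0 on the x axis and nearer 0 on the y axis, with medians of -0.52 and -0.61 in Tfh cells, and the called naive genes (filled squares) lie to the upper right.

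Metabolic genes that passed changed by small amounts. Of 25 glycolysis genes 5 fell and 1 rose (Pdk1, a kinase that inhibits pyruvate dehydrogenase). Pdk1 lost its call under the shared-source fit (limma-voom adjusted p = 0.0672). Pgk1, a glycolytic kinase, had 177 and 171 CPM in Tfh cells with empty vector, 124 and 114 with Bach2, 177 and 174 in non-Tfh cells with empty vector and 144 and 136 with Bach2, without overlap between vectors (log2 fold change -0.44, SE 0.0644, adjusted p = 0.00259). Aldoa (-0.38, SE 0.0613), Gapdh (-0.30, SE 0.0628), Pkm and Ldha also fell. Of 32 cholesterol and fatty acid synthesis genes 8 fell and 2 rose, the acetyl-CoA synthetases Acss1 and Acss2. Insig1, a sterol sensor that restrains cholesterol synthesis, had 29.3 and 29.9 CPM with empty vector against 22.03 and 19.2 with Bach2 in Tfh cells, and 38.3 and 33.2 against 21.4 and 25.9 in non-Tfh cells, without overlap between vectors (log2 fold change -0.56, SE 0.105), and Cyp51, a sterol demethylase, fell by 0.50. With 1 library left out the falls ran from 2 to 9 for the sterol list and from 2 to 6 for glycolysis, both lowest without Bach2 non-Tfh replicate 2 (glycolysis also without EV Tfh replicate 1). Of 45 respiratory chain genes only Ndufb9 and Cycs fell, though all 45 estimates were below 0 (median -0.13). The share called, 4.44%, was near the 4.93% of all genes. The shared-source fit called 0 of the 45, and with 1 library left out Ndufb9 was called in 1 and Cycs in 2 of 8 fits. Of 53 ribosomal protein genes 1 was called (1.89%), Rps27, which rose by 0.27 and has near-identical copies. Of 30 Myc and ribosome biogenesis genes only Odc1 fell (3.33% called), and of 20 amino acid genes none was called. These shares are not above the 4.93% of all genes. Rps27 and Odc1 lost their calls under the shared-source fit (limma-voom adjusted p = 0.0947 and 0.0627). Myc did not pass (log2 fold change 0.20, adjusted p = 0.433).

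Of 51 interferon-induced genes 12 fell and 1 rose (Ifi209), with a median of -0.17 (-0.14 in Tfh, -0.18 in non-Tfh cells). Oasl2, an antiviral protein, had 33.01 and 41.1 CPM in Tfh cells with empty vector, 20.2 and 15.8 with Bach2, 49.1 and 44.7 in non-Tfh cells with empty vector and 28.2 and 22.3 with Bach2, without overlap between vectors (log2 fold change -0.96, SE 0.117, adjusted p = 0.000705). Ly6a, which encodes Sca-1 and has close relatives in its cluster, had 1202 and 1249 CPM with empty vector against 955 and 878 with Bach2 in Tfh cells, and 1490.0 and 1430.4 against 1007 and 1074 in non-Tfh cells (log2 fold change -0.45, SE 0.0537). Ifitm1, a membrane protein that blocks virus entry, had 15.05 and 16.96 CPM in Tfh cells with empty vector, 5.97 and 11.4 with Bach2, 206 and 225 in non-Tfh cells with empty vector and 85.02 and 109 with Bach2 (log2 fold change -1.07, SE 0.143). Isg15, Ifit3, Isg20, Oas3, Gbp2, Gbp3, Rtp4 and Dhx58 fell too. With 1 library left out the number of falls was 9 to 14.

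PI3 kinase and TGF-beta genes that passed all rose. Of 27 PI3 kinase genes 6 rose and 0 fell, among them Pik3ip1, Pik3cd, Pdk1, Rictor and Inpp4b. Pik3cd, the catalytic subunit of leukocytes, had 459 and 409 CPM with empty vector against 538 and 631 with Bach2 in Tfh cells, and 536 and 494 against 613 and 738 in non-Tfh cells (log2 fold change 0.41, SE 0.0727). Of 23 TGF-beta genes 5 rose and 0 fell: Smad7, Itgav, Tgfbr2, Smurf1 and Smurf2. Smad7, which inhibits the TGF-beta receptor, had 6.62 and 5.69 CPM in Tfh cells with empty vector, 9.55 and 13.05 with Bach2, 35.6 and 41.3 in non-Tfh cells with empty vector and 57.7 and 69.8 with Bach2 (log2 fold change 0.78, SE 0.124, adjusted p = 0.00359). In fits without 1 library both lists came down to 2 rises at the lowest, for example without Bach2 non-Tfh replicate 2. The shared-source fit called 2 rises in the PI3 kinase list and 3 in the TGF-beta list. Rictor and Smurf1 lost their calls there (limma-voom adjusted p = 0.0774 and 0.0845). With 1 library left out, Rictor was called in 2 and Smurf1 in 1 of the 8 fits. Of 31 MAP kinase genes, Rasgrp1, the exchange factor that activates Ras in T cells (0.39, SE 0.0619), Dusp6, a phosphatase of ERK (0.38, SE 0.0782), and Rasal3 rose. Dusp6 was the only member called among 21 early genes of the T cell receptor, or 4.76%, near the 4.93% of all genes. Of 20 IL-2 receptor and STAT5 genes, Bcl2, Stat5b (0.30, SE 0.0576) and Il4ra (0.60, SE 0.127) rose, and Socs1 (-0.47, SE 0.0884), Il2ra and Prdm1 fell. Of 13 BCL2 family genes Bcl2 rose and Bcl2a1b, whose reads are shared with near copies, fell. Bcl2a1b lost its call under the shared-source fit (limma-voom adjusted p = 0.0576). Of 13 regulatory T cell genes Nrp1 rose (0.24, SE 0.0547) while Tnfrsf9 and Il2ra fell.

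Genes on either side of the threshold had like values. Cdkn3, Egln3 and Eif4g3 were just inside (adjusted p = 0.0497 in each), and Ndufab1, Tmem154 and Osbpl7 just outside (0.0503 to 0.0507). Within each cell type the Bach2 and empty vector libraries did not overlap for 553 of the 566 called genes, as against 17.8% of all genes, and over all 8 libraries for 214 of the 566, as against 5.35% of all. These shares use the values that chose the genes and are a description only.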

How the data were processed

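RNA of 8 sorted T cell samples was sequenced in pairs after Smart-Seq v4 amplification and Nextera XT library preparation, per the labels' protocols. The deposited values are whole-number counts per Ensembl gene, which the authors made with TopHat2, Bowtie2 and featureCounts on GRCm38/mm10, per the submitters' processing notes. No version, annotation release, strand setting or handling of reads with several matches is given in the sources used here, so counts of near-identical genes are uncertain. Symbols and positions came from GENCODE by Ensembl ID, which matched 37607 of 39179 IDs. The other 1572 held 0.187% to 0.205% of counts and stayed in the fit.

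Counts were fitted with edgeR 4.0.16 in R 4.3.3 over all 8 libraries as vector plus cell type (5 residual degrees of freedom), after filterByExpr (minimum count 10, minimum total 15) and TMM scaling (factors 0.985 to 1.01). Robust quasi-likelihood p-values were adjusted by Benjamini-Hochberg over all genes tested, with a threshold of 0.05. Effects in each cell type and their difference came from a model with 1 coefficient per group (4 residual degrees of freedom). The biological coefficient of variation was 9.76%. Replicates differed by more than counting noise (chi-square per degree of freedom 5.67 to 8.81), so none was a copy. The script was tested on simulated data.

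Named were Bach2, the 12 largest rises and falls, and the 5 smallest p-values per direction. The largest changes were taken among called genes without overlap, with a group mean of at least 5 CPM and the same direction in both cell types. Up to 4 called members by p of each of 35 gene lists were named too, with a panel of T helper genes, called or not. A few further genes are named as members of a list's count. Some items that these rules select are not reported here. Members and lists were chosen with earlier results of these data known. Lists are described by counts and medians, with no test of their own. Alternatives were other scaling (RLE), no filter, DESeq2 1.42.0, limma-voom (limma 3.58.1) with and without a shared-source block, replicate blocks, other thresholds and leaving out each library.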

Additional observations from a re-analysis of the deposited data

How the results depend on the processing

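For the count of the common effect (566), RLE scaling gave 563, DESeq2 759, the mean over cell types of the 4-group model 605, limma-voom 523 and non-robust estimation 524. It moved to 99 at an adjusted p under 0.01, 43 when tested against a 1.2-fold change, 1224 without a filter on low counts, 282 with limma-voom and a random replicate block within each vector, and 158 to 839 with 1 library left out. The count for Tfh cells (196) became 316 in DESeq2, 736 without the filter and 21 to 254 with 1 library left out. That for non-Tfh cells (100) became 332 without the filter and 17 to 133 with 1 library left out. The difference between cell types (0) became 6 in DESeq2, 37 without the filter and 0 to 1 with 1 library left out.

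Deviations of same-numbered libraries from their group means were correlated to check for pairing. Across vectors the values were 0.026 in Tfh and 0.129 in non-Tfh cells, and -0.0041 and 0.124 across both vector and cell type. Within a vector they were larger, 0.208 (empty vector) and 0.240 (Bach2). The values not over 0.1 were across vectors, and they cannot decide whether Tfh and non-Tfh libraries of one vector are paired. The labels give no shared source, so the main fit took the libraries as independent. Whether the numbers pair the samples was not settled. With a fixed replicate block 811 genes were called for the common effect, 473 for Tfh cells, 207 for non-Tfh cells and 3 for the difference.

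None of the 105 called genes chosen by the naming rule reversed under the 18 alternatives. Among genes that did not pass, the sign of small estimates turned. With 1 library left out, the log2 fold change ran from -0.18 to 0.034 for Tbx21, -0.22 to 0.11 for Il7r, -0.024 to 0.067 for Cd226 and -0.15 to 0.12 for Id2. The 4-group mean gave 0.0060 for Il7r and 0.017 for Id2, and DESeq2 gave 0.013 for Id2. The cause was not tested. With 2 libraries per group and a biological coefficient of variation of 9.76%, small changes may be missed.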

Other observations

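Genes called in 1 cell type but not for the common effect, 60 in Tfh and 16 in non-Tfh cells, are left out of the comparison above. Those with the smallest p-values in Tfh cells were Ccna2, Uhrf1, Mcm10, Chaf1a, Ksr1 and Aurkb, of which all but Ksr1, a scaffold of the MAP kinase cascade, are known for DNA replication, chromatin assembly or division. In non-Tfh cells they were B4galnt4, Tnfrsf26, Tnfrsf1b, Tmem154, Rab8b and Samd11. Whether the effect on these genes differs between the cell types did not pass adjustment for any of them.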
